A study of Mus musculus with 3 samples.

Results

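The interferon regulatory factors described here are 8 genes, Irf1, Irf2, Irf3, Irf4, Irf5, Irf7, Irf8 and Irf9, out of 31054 features in the deposited tables. They were chosen as members of one gene family, and each was followed in 7 classes of mouse lung cells, which gives 56 values for each library. The libraries came from irradiated conditional knockout mice that also received a drug, from irradiated wild-type mice, and from wild-type mice that were not irradiated, with 1 library per group. The first group is called irradiated cKO with drug below. The gene that was knocked out, the driver of the knockout, the drug, the radiation dose, the time after irradiation, and the strain, age and number of mice are named nowhere in the sources used here. In the irradiated cKO with drug library the genotype and the drug cannot be told apart, and the knocked-out gene could not be checked. With 1 library per group no difference between libraries has a replicate check and no test was made, so the intervals given are exact and cover counting error only.

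Droplet single-cell RNA sequencing counts unique molecular identifiers (UMIs), each standing for 1 captured transcript. The libraries held 76667310 UMIs in the irradiated cKO with drug library, 45800421 in the irradiated WT library and 85984536 in the non-irradiated WT library. After removal of barcodes with under 250 genes or over 15% mitochondrial UMIs, 9886, 5805 and 13091 cells remained in the same order, with medians of 6070.5, 5706 and 4899 UMIs. Classes were gated on a few transcripts: T cells on Cd3d, Cd3e and Cd3g, B cells on Cd79a, NK cells on Ncr1 without those Cd3 genes, mononuclear phagocytes on Csf1r, endothelial cells on Pecam1 and Cdh5, fibroblasts on Col1a1 and Col1a2, and epithelial cells on Epcam without Ptprc, the gene for the leukocyte protein CD45. In that library order there were 5103, 2674 and 1859 T cells, 763, 571 and 1425 B cells, 463, 339 and 318 NK cells, and 240, 86 and 628 Csf1r+ cells. Endothelial cells numbered 695, 401 and 2945, fibroblasts 963, 424 and 3950, and epithelial cells 190, 118 and 448. Within the gates, gamma-delta T cells were taken by Trdc, regulatory T cells by Foxp3, alveolar type 2 cells by Lamp3, ciliated cells by Ccdc153 and Tmem212, and adventitial fibroblasts by Pi16. A cell could pass more than 1 gate, as 6.87%, 5.75% and 10.9% of the kept cells did. In the irradiated WT library 27.5% of the kept cells carried Y-linked transcripts without Xist, against 27 cells in the irradiated cKO with drug library and 1 in the non-irradiated WT library, and the labels do not give the sex of the mice. Between 25 and 46 barcodes were shared by any pair of libraries.

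Interferon regulatory factors are transcription factors that bind interferon-stimulated response elements (ISREs) in DNA and turn on interferon genes and the genes that interferons induce. IRF3, IRF5 and IRF7 are activated when receptors sense foreign or misplaced nucleic acids, IRF9 is part of the complex that answers type I interferon, and IRF1 is induced by interferon gamma through gamma-activated sites (GAS) in DNA. IRF4 and IRF8 act with partners such as PU.1 and BATF in the development of lymphocytes and myeloid cells, and IRF2 can compete with IRF1 for the same elements.

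The promoter windows of 4 members are shown because Irf1 and Irf7 carry most of the differences between libraries, and because Irf1, Irf2 and Irf8 are the members whose windows held 1 of the elements searched for. Each window runs from 250 bases before to 50 bases after the gene's start in RefSeq on GRCm38.p6, written 5′ to 3′ on the strand of the gene, with the elements in capitals. The elements were the GAS, spelled TTCNNNGAA, and the ISRE core, spelled GAAA, then NN, then GAAA, searched on both strands. The windows lie at chr11:53769764-53770063 on the plus strand for Irf1, chr8:46739495-46739794 on the plus strand for Irf2, chr7:141266375-141266674 on the minus strand for Irf7 and chr8:120736108-120736407 on the plus strand for Irf8.
Irf1: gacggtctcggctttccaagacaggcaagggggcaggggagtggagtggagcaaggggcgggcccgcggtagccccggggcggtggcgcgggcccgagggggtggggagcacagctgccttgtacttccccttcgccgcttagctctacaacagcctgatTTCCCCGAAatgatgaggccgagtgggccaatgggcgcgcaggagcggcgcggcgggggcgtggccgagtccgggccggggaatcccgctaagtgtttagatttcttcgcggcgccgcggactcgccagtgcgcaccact
Irf2: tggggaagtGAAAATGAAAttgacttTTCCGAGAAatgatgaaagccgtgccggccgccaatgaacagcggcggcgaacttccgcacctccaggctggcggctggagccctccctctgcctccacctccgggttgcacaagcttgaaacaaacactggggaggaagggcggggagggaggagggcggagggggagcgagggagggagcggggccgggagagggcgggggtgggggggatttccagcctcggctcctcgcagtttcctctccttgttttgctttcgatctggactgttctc
Irf7: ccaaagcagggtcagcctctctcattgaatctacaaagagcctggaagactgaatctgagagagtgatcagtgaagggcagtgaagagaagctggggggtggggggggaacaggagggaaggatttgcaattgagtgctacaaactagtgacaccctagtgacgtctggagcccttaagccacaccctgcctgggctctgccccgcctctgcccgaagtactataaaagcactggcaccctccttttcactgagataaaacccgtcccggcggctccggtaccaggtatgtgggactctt
Irf8: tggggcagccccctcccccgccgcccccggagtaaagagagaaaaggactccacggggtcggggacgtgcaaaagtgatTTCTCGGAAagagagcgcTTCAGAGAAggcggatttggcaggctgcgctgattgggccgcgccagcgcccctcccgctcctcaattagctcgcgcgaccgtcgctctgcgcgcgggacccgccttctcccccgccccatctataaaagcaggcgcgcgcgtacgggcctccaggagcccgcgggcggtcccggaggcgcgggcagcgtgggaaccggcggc
The Irf1 window holds the GAS TTCCCCGAA, which begins 90 bases before the start. The Irf2 window holds the ISRE core GAAAATGAAA at 241 bases and the GAS TTCCGAGAA at 224 bases before the start, without overlap, and it is the only one of the 11 windows listed for the 8 members with the ISRE core. The Irf8 window holds 2 GAS, TTCTCGGAA at 171 bases and TTCAGAGAA at 153 bases before the start. A GAS stood in 3 of the 11 members' windows, and in 2726 of 32851 mouse promoter windows of the same length (8.30%). The ISRE core stood in 1131 of the 32851 (3.44%). These matches describe the letters of the windows only, and the window of Irf7 held neither spelling.

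Levels are given as CPM, the UMIs of a gene scaled to a total of 1000000 UMIs over all cells of a class in a library. They are compared between classes and libraries for the same gene, not between genes. A gene was called higher or lower when its CPM differed at least 1.5-fold after 5 CPM were added to both sides (0.58 on the log2 scale), with at least 30 UMIs in the higher library and at least 50 cells in each. Several patterns recur in the values below. Irf1 was higher in B cells of both irradiated libraries, Irf7 was higher in epithelial cells, fibroblasts and Csf1r+ cells of both irradiated libraries, and Irf7 was higher in T and B cells of the irradiated cKO with drug library than of the irradiated WT library. Irf4 was lower in Csf1r+ cells of both irradiated libraries, and 5 members had calls in the endothelial gate, where Irf1 was higher in both irradiated libraries.

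**Figure D1:**
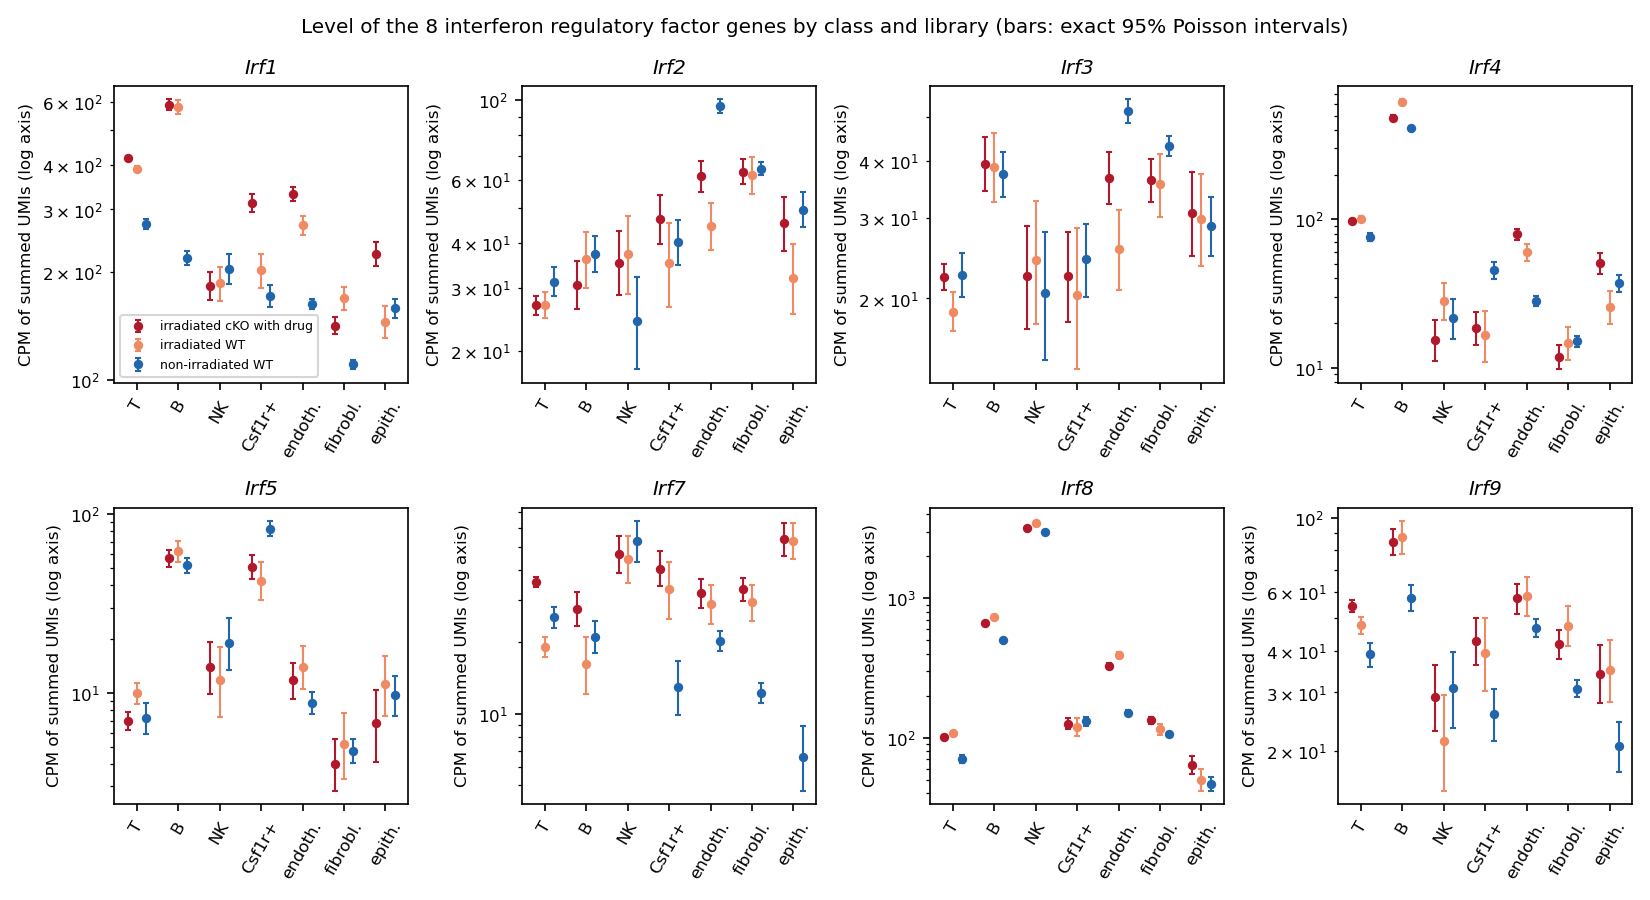
Level of each interferon regulatory factor in CPM (log axis) in the 7 gated classes, for irradiated cKO with drug, irradiated WT and non-irradiated WT, with bars for the exact Poisson 95% interval of the counts. Irf8 in NK cells stands between 2996 and 3488 CPM, and Irf4 is highest in B cells in every library.

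Between the irradiated cKO with drug and the non-irradiated WT library, 11 of the 56 member and class values were higher and 3 lower. Over all genes and classes that could be compared, 6.25% were higher and 11.4% lower. Between the irradiated cKO with drug and the irradiated WT library, 5 of the 54 member values that could be compared were higher and 1 was lower, beside 4.26% and 3.74% over all genes. Between the irradiated WT and the non-irradiated WT library, 9 of 54 were higher and 4 lower, beside 7.97% and 13.8% over all genes. The comparisons share libraries, so their counts are not independent. Irf1 and Irf7 together gave 7 of the 11 higher values of the irradiated cKO with drug against the non-irradiated WT library, and 6 of the 9 higher values of the irradiated WT against the non-irradiated WT library.

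**Figure D2:**
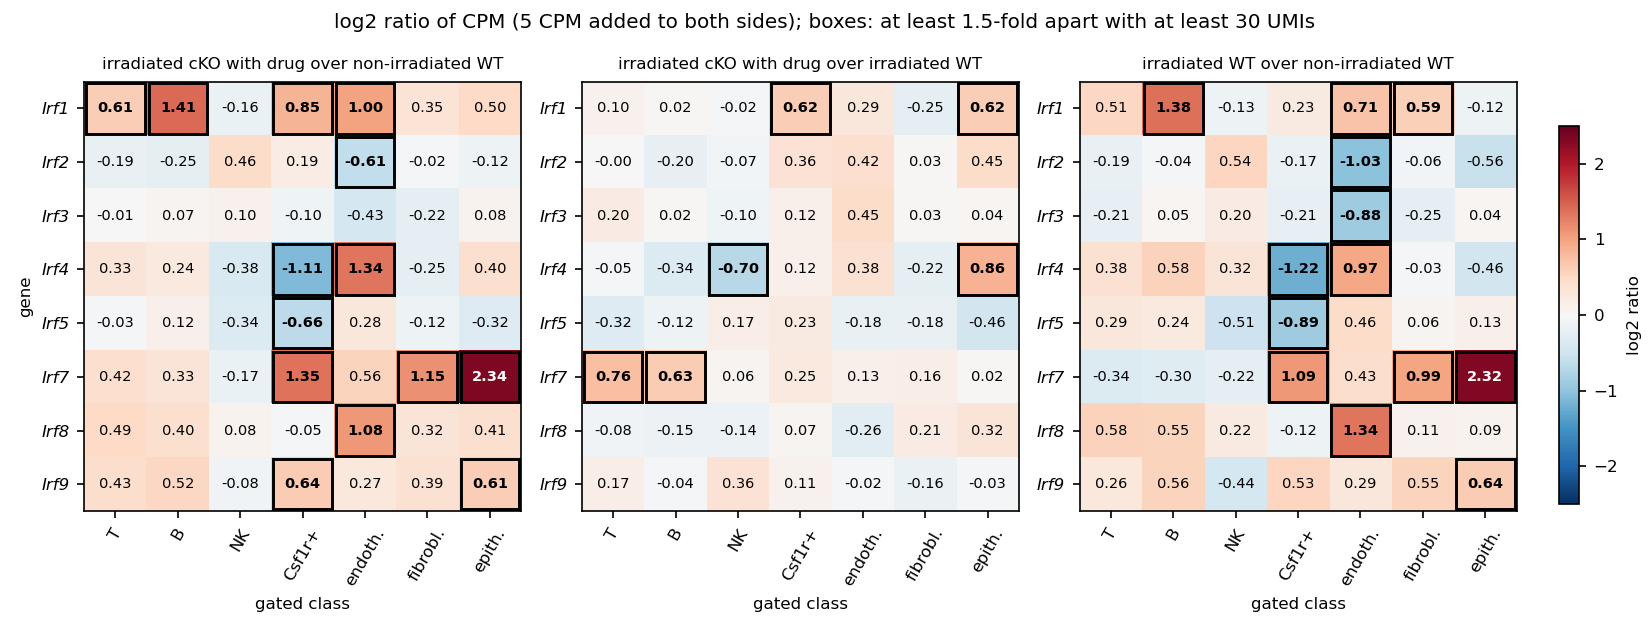
Log2 ratio of CPM (5 CPM added to both) for each member (rows) and class (columns) in the 3 library pairs, with each called value outlined. Irf1 in B cells reads 1.41 and 1.38 against the non-irradiated WT library, and Irf7 in epithelial cells 2.34 and 2.32.

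Irf1, an activator of interferon-induced and antigen-presentation genes, reached 590.0 CPM in B cells of the irradiated cKO with drug library (Poisson 95% interval 570.1 to 610.5), 581 CPM in the irradiated WT library (556 to 607) and 220 CPM in the non-irradiated WT library (210 to 230.0). The 2 irradiated libraries overlapped within counting error, and both stood apart from the non-irradiated library. This was 2.65-fold higher in the irradiated cKO with drug library and 2.61-fold higher in the irradiated WT library than in non-irradiated WT B cells, while the log2 ratio between the 2 irradiated libraries was 0.02. In B cells, higher calls over all genes made up 1.77% between irradiated cKO with drug and non-irradiated WT and 3.38% between irradiated WT and non-irradiated WT. Irf1 was the only member of the 8 called higher in B cells in either comparison.

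The share of B cells with an Irf1 UMI was 82.6% in the irradiated cKO with drug library, 74.6% in the irradiated WT library and 51.7% in the non-irradiated WT library. Median depth was 6054, 5020 and 4745 UMIs in that order, so each cell was also thinned to 1000 UMIs, after which the shares were 42.1%, 36.1% and 17.4%. The order of the libraries stayed the same at equal depth. None of the gated classes should lack Irf1 or Irf7, so no background share from free RNA is given for them, while Sftpc, a surfactant gene that T cells should lack, read 290.3 CPM in irradiated cKO with drug, 84.2 CPM in irradiated WT and 2669 CPM in non-irradiated WT T cells. Among B cells that passed no other gate, Irf1 read 655 CPM in irradiated cKO with drug, 617 CPM in irradiated WT and 234 CPM in non-irradiated WT cells. Male-type B cells of the irradiated WT library had 489 CPM (148 cells) and female-type B cells 618 CPM (297 cells), and female-type B cells of the irradiated cKO with drug and non-irradiated WT libraries had 576 and 216 CPM.

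In T cells Irf1 read 419 CPM in the irradiated cKO with drug library, 390.0 CPM in the irradiated WT library and 273 CPM in the non-irradiated WT library. It was called higher in irradiated cKO with drug than in non-irradiated WT T cells (log2 ratio 0.61), where 1.08% of all genes were called higher. The irradiated WT T cells had a log2 ratio of 0.51 to the non-irradiated WT T cells, under the fold set for a call. Within T cells the level depended on the subset. Gamma-delta T cells carried 708 CPM in irradiated cKO with drug, 622 CPM in irradiated WT and 434 CPM in non-irradiated WT lungs, against 243, 220 and 211 CPM in CD8 T cells in the same library order. Gamma-delta cells were 1649 of 5103, 851 of 2674 and 397 of 1859 T cells in that order, and their part in the T-cell value was not tested. CD4 T cells had 363, 301 and 247 CPM, and regulatory T cells 293, 225 and 205 CPM, so the irradiated cKO with drug library had the largest value in all 4 subsets.

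In the other classes Irf1 was called in some pairs and not in others. Fibroblasts had 142 CPM in irradiated cKO with drug, 169 CPM in irradiated WT and 110 CPM in non-irradiated WT lungs, and the irradiated WT value was just past the call (log2 ratio 0.59, where 2.11% of all genes were called higher). Csf1r+ cells had 313 CPM in irradiated cKO with drug, 203 CPM in irradiated WT and 172 CPM in non-irradiated WT lungs. Irf1 was thus higher in irradiated cKO with drug Csf1r+ cells than in either wild-type library, by 0.62 over irradiated WT and 0.85 over non-irradiated WT on the log2 scale. Higher calls over all genes in Csf1r+ cells made up 9.2% against the irradiated WT library and 8.11% against the non-irradiated WT library. Over the alternative settings the log2 ratio to irradiated WT ranged from 0.47 to 0.71 and kept its call in 6 of 11. Of the Csf1r+ cells, nonclassical monocytes read 401, 181 and 166 CPM (89, 24 and 326 cells), and neutrophils, gated apart, read 292, 101 and 100.1 CPM (119, 33 and 159 cells). NK cells had 183, 186 and 205 CPM with overlapping intervals and no call. Epithelial cells had 226, 146 and 159 CPM and a call between the irradiated libraries, but among epithelial cells that passed no other gate the values were 137, 142 and 162 CPM, and 14.99% of the Irf1 UMIs of irradiated cKO with drug epithelial cells lay in 1 cell.

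**Figure D3:**
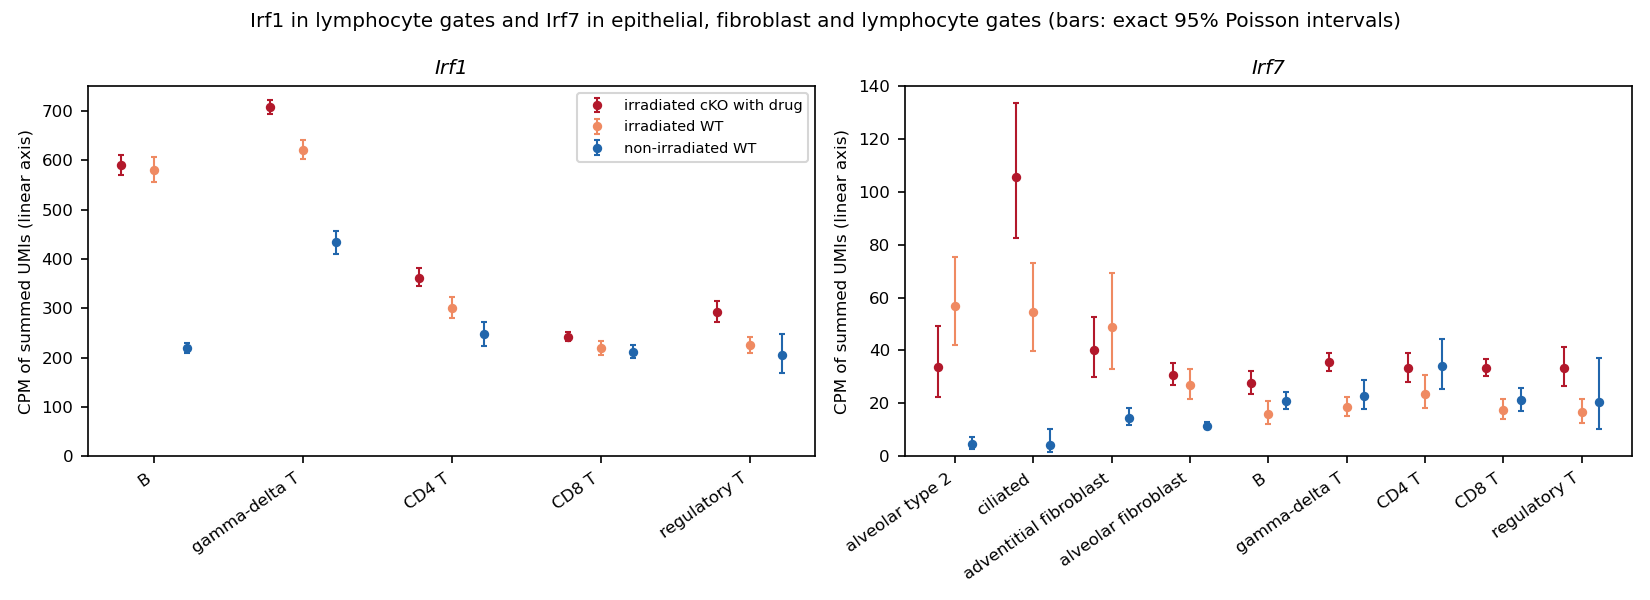
Irf1 in CPM in B cells and T-cell subsets, and Irf7 in CPM in these and in epithelial and fibroblast subsets (linear axes), for irradiated cKO with drug, irradiated WT and non-irradiated WT, with exact Poisson 95% intervals. Irf1 is highest in gamma-delta T cells among the T-cell subsets in every library, and Irf7 in non-irradiated alveolar type 2 and ciliated cells is near 4 CPM.

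Irf2, which binds many of the same sites as IRF1 and often represses them, varied little in fibroblasts and T cells. Fibroblasts had 63.3, 61.7 and 64.4 CPM in the irradiated cKO with drug, irradiated WT and non-irradiated WT libraries, and T cells 26.8, 26.8 and 31.2 CPM. With all cells of each gate, no class other than endothelial cells had an Irf2 call in any pair. NK cells that passed no other gate varied more. They read 31.9 CPM in irradiated cKO with drug (24.8 to 40.4) and 37.95 CPM in irradiated WT lungs (28.7 to 49.2). In non-irradiated WT lungs they read 19.99 CPM (12.9 to 29.5), on 68, 57 and 25 UMIs in that library order. Fibroblasts had the largest Irf2 level in both irradiated libraries and endothelial cells in the non-irradiated WT library, but endothelial cells without a Ptprc UMI had 103 CPM in irradiated cKO with drug and 96.0 CPM in irradiated WT lungs, above the fibroblasts. The smallest level was in T cells of both irradiated libraries. The r of Irf1 and Irf2 was -0.46 over the 21 class and library profiles, which share libraries and are no independent samples.

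Irf9, the DNA-binding subunit of the complex ISGF3 that answers type I interferon, was largest in B cells of every library, with 84.8 CPM in irradiated cKO with drug, 87.5 CPM in irradiated WT and 57.8 CPM in non-irradiated WT cells. The log2 ratios of 0.52 and 0.56 to the non-irradiated library were just under the call. Epithelial cells had 34.2, 35.1 and 20.7 CPM in that library order. There Irf9 was called higher in both irradiated libraries, by 0.61 in irradiated cKO with drug and 0.64 in irradiated WT over non-irradiated WT. In Csf1r+ cells it read 42.9, 39.4 and 25.8 CPM, which was called for irradiated cKO with drug against non-irradiated WT (0.64) and missed the call for irradiated WT against non-irradiated WT (0.53). NK cells had 29.0, 21.5 and 30.9 CPM and no call. The annotated exons of Irf9 share 123 bases with Rnf31 on the same strand, so reads there could belong to either gene.

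Irf7, the factor that amplifies type I interferon production and is itself interferon-induced, had the largest differences between libraries. Epithelial cells held 53.8 CPM in the irradiated cKO with drug library (45.8 to 62.8), 53.0 CPM in the irradiated WT library (44.4 to 62.8) and 6.58 CPM in the non-irradiated WT library (4.74 to 8.90). The 2 irradiated libraries overlapped within counting error and both were far from the non-irradiated library, which rested on 42 UMIs. The log2 ratios were 2.34 and 2.32, among 15.6% and 16.7% of all genes called higher in epithelial cells of irradiated cKO with drug and irradiated WT over non-irradiated WT. In those libraries 25.8%, 31.4% and 7.81% of epithelial cells had an Irf7 UMI, at median depths of 9163, 12764.5 and 10284 UMIs.

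The difference in epithelial Irf7 was present in both epithelial subsets that could be gated. Alveolar type 2 cells, which make surfactant, read 33.9, 57.0 and 4.44 CPM in irradiated cKO with drug, irradiated WT and non-irradiated WT lungs (38, 26 and 230 cells). Ciliated cells read 105.7, 54.7 and 4.36 CPM (31, 28 and 43 cells). Each of these subsets had fewer than 50 cells in the irradiated libraries, so no call was made in them. Of the epithelial gate, 41.6%, 30.5% and 45.8% of cells also passed another gate in the same library order, and summed epithelial marker levels were 36693, 30327 and 99832 CPM. Among epithelial cells that passed no other gate Irf7 read 56.4, 59.6 and 4.97 CPM (111, 82 and 243 cells), so the difference was present there too. The part of the marker levels in the epithelial values was not tested.

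Fibroblasts had an Irf7 level of 33.3 CPM in irradiated cKO with drug (29.7 to 37.2), 29.3 CPM in irradiated WT (24.5 to 34.8) and 12.2 CPM in non-irradiated WT lungs (11.1 to 13.4). Again the 2 irradiated libraries overlapped and the non-irradiated library stood below them. The calls were 1.15 and 0.99 on the log2 scale, where 2.95% and 2.11% of all genes were called higher in fibroblasts of irradiated cKO with drug and irradiated WT over non-irradiated WT. Adventitial fibroblasts read 40.1, 48.8 and 14.6 CPM and alveolar fibroblasts 30.9, 27.0 and 11.5 CPM, so both subsets showed it. Without Ptprc+ cells the fibroblast values were 29.2, 30.4 and 11.4 CPM. In the irradiated WT library, male-type fibroblasts had 7.84 CPM from 5 UMIs in 43 cells, against 34.9 CPM in female-type fibroblasts, so the irradiated WT value came mostly from female-type cells.

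Csf1r+ cells had 40.6 CPM of Irf7 in irradiated cKO with drug, 33.2 CPM in irradiated WT and 12.9 CPM in non-irradiated WT lungs, called higher in both irradiated libraries (1.35 and 1.09). In irradiated WT Csf1r+ cells 22.2% of the Irf7 UMIs lay in 1 cell, of 54 in all. NK cells had 46.6, 44.7 and 53.0 CPM with overlapping intervals, the largest level of any class in the non-irradiated WT library. Thus the class order of Irf7 turned round: epithelial cells were at the top in both irradiated libraries and at the bottom in the non-irradiated WT library. In both irradiated libraries the epithelial and NK intervals overlapped.

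T and B cells showed another pattern of Irf7. T cells had 35.6 CPM in irradiated cKO with drug (33.8 to 37.4), 19.0 CPM in irradiated WT (17.2 to 20.9) and 25.4 CPM in non-irradiated WT lungs (22.8 to 28.1), so the intervals of the 3 libraries were apart and the irradiated WT library was at the bottom. The call was between the irradiated libraries (0.76), where 0.836% of all genes were called higher in T cells. B cells had 27.5 CPM in irradiated cKO with drug (23.4 to 32.3), 16.1 CPM in irradiated WT (12.1 to 20.95) and 20.97 CPM in non-irradiated WT lungs (17.9 to 24.4). There too the call was between the irradiated libraries (0.63), where 2.48% of all genes in B cells were called higher, and the irradiated WT value rested on 55 UMIs.

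The T-cell difference in Irf7 appeared in every T-cell subset that was gated, to unlike degrees. Irradiated cKO with drug against irradiated WT values were 35.6 against 18.6 CPM in gamma-delta T cells, 33.6 against 17.5 CPM in CD8 T cells and 33.4 against 16.7 CPM in regulatory T cells. CD4 T cells had 33.2 against 23.7 CPM, and non-irradiated WT CD4 T cells had 34.0 CPM. The share of T cells with an Irf7 UMI was 22.2% in irradiated cKO with drug, 12.9% in irradiated WT and 15.9% in non-irradiated WT lungs, at median depths of 6914, 6614 and 6828 UMIs, and 3.85%, 2.58% and 2.15% after thinning. After thinning the irradiated cKO with drug library stayed at the top, while the irradiated WT and non-irradiated WT shares lay close together. Few cells kept an Irf7 UMI after thinning, so no order of those 2 libraries is drawn from it. Male-type and female-type T cells of the irradiated WT library had 17.5 and 18.5 CPM, which lay close together. Annotated exons of Irf7 share 45 bases with Phrf1 on the opposite strand, and the sources used here do not say whether counting used strand.

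Irf3, the constitutively present factor activated by cytosolic nucleic acid sensing, stayed between 18.7 and 51.5 CPM in all classes and libraries. Its calls were limited to 1 value, in endothelial cells of the irradiated WT library. B cells had 39.5, 38.9 and 37.5 CPM in irradiated cKO with drug, irradiated WT and non-irradiated WT lungs, and fibroblasts 36.4, 35.6 and 43.2 CPM. Irf3 shares 88 exonic bases with Bcl2l12 on the opposite strand.

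Irf5, which acts in Toll-like receptor signalling of B cells and macrophages, was largest in B cells and Csf1r+ cells. Csf1r+ cells had 50.7 CPM in irradiated cKO with drug (43.4 to 58.7), 42.5 CPM in irradiated WT (33.0 to 53.8) and 82.9 CPM in non-irradiated WT lungs (74.9 to 91.4). Irf5 was called lower in Csf1r+ cells of both irradiated libraries, by log2 ratios of -0.66 and -0.89. For irradiated cKO with drug the ratio ranged from -0.87 to -0.20 and kept its call in 8 of 11 alternative settings. It was -0.20 when every cell weighed the same. For irradiated WT it ranged from -2.57 to -0.72 and kept its call in 9 of 11. Over all genes in Csf1r+ cells, 12.6% were lower in irradiated cKO with drug and 19.6% in irradiated WT, both over non-irradiated WT. B cells had 56.7, 62.0 and 51.6 CPM and no call, and fibroblasts were near the bottom with 4.01, 5.18 and 4.77 CPM. The shares of Csf1r+ cells with an Irf5 UMI were 37.9%, 38.4% and 36.2%, beside 0%, 7.69% and 4.35% in alveolar type 2 cells, which should lack the gene, at median depths there of 18287.5, 22005 and 14848.5 UMIs. The 0 among 38 alveolar type 2 cells allows a share of up to 9.25% at the exact 95% limit. The exons of Irf5 share 411 bases with Tnpo3 on the opposite strand, the longest such overlap among the members.

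Alveolar macrophages, gated by Mrc1 with Marco, Siglecf or Krt79 apart from the 7 classes, numbered 52 in irradiated cKO with drug, 50 in irradiated WT and 88 in non-irradiated WT lungs. They held 20.5, 42.0 and 59.4 CPM of Irf5 and 7.70, 20.98 and 31.1 CPM of Irf4 in that order, so the non-irradiated WT library had the largest value of both genes there too. Irf7 read 14.5, 17.8 and 5.84 CPM on 17, 17 and 6 UMIs, and Irf1 236, 159.5 and 163.5 CPM. Plasmacytoid dendritic cells, in which IRF7 and IRF8 are known to be abundant, numbered 4, 3 and 13, and plasma cells, which need IRF4, numbered 4, 4 and 3, too few for a level.

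The make-up of the Csf1r gate differed between libraries. Summed Lyz2, Cd68 and Ctss, markers of mononuclear phagocytes, read 25374 CPM in irradiated cKO with drug, 28642 CPM in irradiated WT and 9202 CPM in non-irradiated WT Csf1r+ cells. Summed epithelial markers in the same cells read 1712, 18542 and 7744 CPM. Of the Csf1r+ cells 38.3%, 29.1% and 41.4% passed another gate. The part of these differences in the Csf1r+ values of the members was not tested.

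Irf4, which drives plasma-cell and effector T-cell differentiation, was largest in B cells of every library, at 483 CPM in irradiated cKO with drug, 614 CPM in irradiated WT and 409 CPM in non-irradiated WT lungs, and no pair was called there. T cells followed with 97.0, 100.8 and 76.0 CPM. Among T cells the level was largest in gamma-delta T cells, which had 189, 201 and 145 CPM, against 36.7, 43.4 and 42.4 CPM in CD8 T cells. Regulatory T cells ran the other way, with 62.0 CPM in irradiated cKO with drug, 49.5 CPM in irradiated WT and 133.5 CPM in non-irradiated WT lungs, from 232, 291 and 70 cells. The log2 ratios there were -1.05 and -1.35 against the non-irradiated library.

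In Csf1r+ cells Irf4 was lower in both irradiated libraries, with 18.4 CPM in irradiated cKO with drug (14.2 to 23.5), 16.6 CPM in irradiated WT (10.95 to 24.2) and 45.4 CPM in non-irradiated WT lungs (39.6 to 51.8). The log2 ratios were -1.11 and -1.22. Among Csf1r+ cells that passed no other gate the values were 8.43, 5.33 and 52.6 CPM, a wider gap (-2.10 and -2.48). After thinning each cell to 1000 UMIs the gap was narrower, with log2 ratios of -0.19 and -0.44 and no call, and the median depths of Csf1r+ cells were 7492.5, 11471.5 and 5065.5 UMIs. In the irradiated WT library 63.0% of the 27 Irf4 UMIs of Csf1r+ cells lay in 1 cell. The share of Csf1r+ cells with an Irf4 UMI was 13.8%, 8.14% and 14.7%, beside 7.90%, 3.85% and 7.39% in alveolar type 2 cells at the depths given above, so most Csf1r+ cells carried no detected Irf4. Irf4 in NK cells, at 15.4, 28.3 and 21.6 CPM, was called lower in irradiated cKO with drug than in irradiated WT cells (-0.70) on 42 and 50 UMIs. Among NK cells that passed no other gate it read 5.63, 8.66 and 4.80 CPM. Irf4 in epithelial cells, at 50.4, 25.5 and 37.0 CPM, was called between the irradiated libraries (0.86), and read 11.8, 7.11 and 15.5 CPM in epithelial cells that passed no other gate.

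Irf8, which is needed for several dendritic cell and monocyte lineages and acts in lymphocytes, was largest in NK cells by a wide margin. NK cells had 3161 CPM in irradiated cKO with drug, 3488 CPM in irradiated WT and 2996 CPM in non-irradiated WT lungs, and 97.8%, 98.8% and 98.1% of them had a UMI. Alveolar type 2 cells, which should lack the gene, had 5.02, 5.82 and 16.1 CPM, with UMIs in 10.5%, 15.4% and 16.1% of cells. The NK levels were 45.9, 63.3 and 57.9 times those of epithelial cells, the class at the bottom, after 5 CPM were added to each. B cells came after NK cells in every library with 659.8, 730.1 and 498 CPM, and no pair was called. T cells had 102, 108 and 70.8 CPM, with log2 ratios of 0.49 and 0.58 to the non-irradiated WT library, neither reaching the call. Fibroblasts had 134, 115 and 106 CPM, and kept 66.0, 85.8 and 73.5 CPM without Ptprc+ cells. Type 1 conventional dendritic cells, a lineage that needs IRF8, read 366, 306 and 235 CPM from only 27, 42 and 16 cells.

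The endothelial and Csf1r gates gave the most calls of the classes over the 3 pairs, and the cells of the endothelial gate were not all endothelial. Of the cells in it, 60.3% in irradiated cKO with drug, 73.3% in irradiated WT and 22.7% in non-irradiated WT lungs had a Ptprc UMI, and 288, 177 and 236 of them also passed the T-cell gate. Summed endothelial markers read 1085, 649.5 and 3305 CPM in the same order. Over all genes in the gate, 11.1% were higher and 20.9% lower in irradiated cKO with drug, and 12.0% higher and 26.1% lower in irradiated WT, both over non-irradiated WT. For the members other than Irf5, each endothelial value is therefore given with and without Ptprc+ cells. The version without them was added after the data were seen and rests on 276, 107 and 2277 cells. Shares over all genes were not counted in that version. The gene lists below were counted in the whole gate only.

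**Figure D4:**
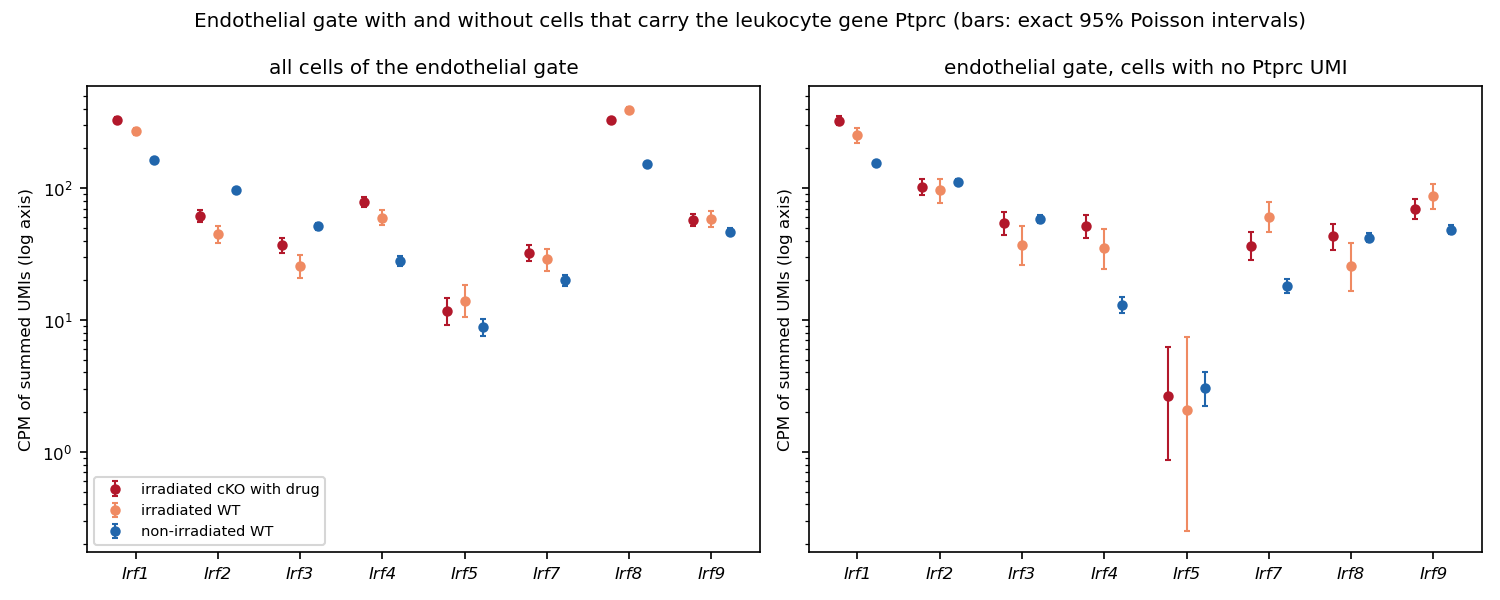
Level of each member in CPM in all cells of the endothelial gate and in those without a Ptprc UMI, for irradiated cKO with drug, irradiated WT and non-irradiated WT, with exact Poisson 95% intervals. Irf8 in the irradiated libraries drops to 43.0 and 25.8 CPM without Ptprc+ cells.

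Irf8 in the whole gate read 327 CPM in irradiated cKO with drug, 391 CPM in irradiated WT and 152 CPM in non-irradiated WT lungs, called higher in both irradiated libraries (1.08 and 1.34). Without Ptprc+ cells it read 43.0, 25.8 and 42.0 CPM, and the log2 ratio of irradiated WT over non-irradiated WT was -0.61, a call in the opposite direction. Irradiated cKO with drug was then called higher than irradiated WT (0.64). Among cells that passed the endothelial gate only, Irf8 read 411, 800.1 and 124 CPM, and the log2 ratios over non-irradiated WT were larger (1.69 and 2.64). Irf2 in the whole gate read 61.5, 44.6 and 96.3 CPM, called lower in both irradiated libraries (-0.61 and -1.03). Without Ptprc+ cells it read 103, 96.0 and 112 CPM, with log2 ratios of -0.12 and -0.21 and no call. Irf3 read 36.8, 25.7 and 51.5 CPM in the whole gate, called lower in irradiated WT over non-irradiated WT (-0.88). Without Ptprc+ cells it read 54.2, 37.2 and 58.5 CPM, and that log2 ratio was -0.59, still a call.

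Irf1 and Irf4 also kept their calls without Ptprc+ cells. Irf1 read 331 CPM in irradiated cKO with drug, 271 CPM in irradiated WT and 163 CPM in non-irradiated WT lungs in the whole gate, called higher in both irradiated libraries (1.00 and 0.71). Without Ptprc+ cells it read 325, 252 and 154 CPM, close to the values of the whole gate (1.05 and 0.69). With the marker minimums raised by 1 UMI, the log2 ratio of irradiated WT was 0.57, under the call. Irf4 read 78.9, 59.7 and 28.0 CPM in the whole gate (1.34 and 0.97) and 51.5, 35.1 and 12.9 CPM without Ptprc+ cells. Among cells that passed the endothelial gate only, Irf4 read 12.7, 25.6 and 8.52 CPM, from 23, 29 and 90 UMIs, so neither irradiated library reached the 30 UMIs of the call (0.39 and 1.18 over non-irradiated WT). Irf7 read 32.1, 28.8 and 20.1 CPM with no call in the whole gate. Without Ptprc+ cells it read 36.6, 60.9 and 18.1 CPM, which passed the call in both irradiated libraries over non-irradiated WT (0.85 and 1.51). Between the irradiated libraries Irf7 was then called lower in irradiated cKO with drug (-0.66), opposite to its calls in T and B cells (0.76 and 0.63). That call rested on 69 and 59 UMIs, and the intervals just overlapped (28.5 to 46.37 against 46.35 to 78.5 CPM). Among cells that passed the endothelial gate only, Irf7 read 34.1, 46.8 and 22.4 CPM. Irf9 read 57.4, 58.4 and 46.8 CPM with no call, and 69.6, 86.7 and 48.5 CPM without them, past the call for irradiated WT over non-irradiated WT (0.78). Irf2 in aerocytes, a capillary type gated by Car4 within the endothelial gate (119, 55 and 925 cells), read 120, 144 and 125 CPM, which is near the level without Ptprc+ cells.

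The genes around the family were followed as lists of ligands, receptors, signalling proteins, partners and induced genes. Of 15 interferon ligand genes few had enough UMIs. Ifng, the gene for interferon gamma, read 73.1 CPM in irradiated cKO with drug, 61.0 CPM in irradiated WT and 38.7 CPM in non-irradiated WT T cells, called higher in both irradiated libraries (0.84 and 0.59). NK cells had 544, 525 and 728.5 CPM of Ifng and no call. Ifnb1, the gene for interferon beta, read 0.58, 1.23 and 29.4 CPM in Csf1r+ cells, on 2, 2 and 141 UMIs. Of the 6 interferon receptor genes 4 or 5 could be compared in T, B and NK cells, and none was called higher in any pair. Higher calls over all genes made up only 0.836% to 9.96% there. In T cells 1 of 5 was lower in irradiated cKO with drug and in irradiated WT over non-irradiated WT, beside 9.24% and 10.3% of all genes. In Csf1r+ cells 1 of the 5 compared was lower in irradiated cKO with drug and 3 of 5 in irradiated WT over non-irradiated WT. There 12.6% and 19.6% of all genes were lower.

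Of the 11 JAK-STAT genes, 3 were higher and 1 was lower in irradiated WT over non-irradiated WT T cells, where 3.90% of all genes were higher and 10.3% lower. In B cells 2 of 10 were higher and 1 was lower, beside 3.38% and 14.5% of all genes. Socs3, an inhibitor of cytokine signalling, was the gene that was lower in each, and the genes that were higher are not named here. It read 103 CPM in irradiated cKO with drug, 83.1 CPM in irradiated WT and 215 CPM in non-irradiated WT T cells, and 71.7, 57.4 and 192 CPM in B cells in the same order, with log2 ratios of -1.32 and -1.66 for irradiated WT over non-irradiated WT.

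The 24 interferon-gamma-induced genes were higher in 10 of the 23 compared in irradiated cKO with drug over non-irradiated WT T cells and lower in none. Their median log2 ratio was 0.51, against 0.01 over all genes. In B cells 9 of 18 were higher and 1 was lower, with a median of 0.53 against -0.08 over all genes. Irradiated WT over non-irradiated WT, 5 of 24 were higher in T cells (median 0.38 against 0.07). In B cells 4 of 18 were higher and 3 lower (median 0.08 against -0.03). Over all genes in T cells 1.08% and 3.90% were higher and 9.24% and 10.3% lower in these 2 pairs. In B cells 1.77% and 3.38% of all genes were higher and 15% and 14.5% lower. In epithelial cells 10 of 16 were higher and none lower, and 4 of 15 higher and 2 lower, in the same pair order. There 15.6% and 16.7% of all genes were higher. NK cells had 1 of 16 higher and 1 lower, and 2 of 14 higher and 3 lower. In T and B cells, but not in NK cells, the list thus had more genes called higher in the library with knockout and drug than in irradiated WT. The difference between the irradiated libraries was not tested.

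Among them Irgm1, an immunity-related GTPase, read 94.2 CPM in irradiated cKO with drug, 51.7 CPM in irradiated WT and 40.1 CPM in non-irradiated WT T cells, and 87.6, 45.9 and 35.2 CPM in B cells. Serpina3g, a serine protease inhibitor of lymphocytes, read 37.3, 33.7 and 17.2 CPM in T cells and 71.5, 46.8 and 23.8 CPM in B cells. Both were higher in irradiated cKO with drug than in non-irradiated WT cells of both classes. Gbp6, a guanylate-binding protein, read 12.7, 12.3 and 3.92 CPM in T cells and was higher there too (0.99). Gbp2, of the same protein family, was the B-cell member that was lower, with 3.58, 2.93 and 14.4 CPM. Tap1, a peptide transporter of antigen presentation that is a known IRF1 target, read 94.6, 81.4 and 42.7 CPM in B cells, higher in both irradiated libraries (1.06 and 0.86).

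The 28 type I interferon-stimulated genes, 27 of them in the tables, were counted in each class. In epithelial cells 16 of the 21 compared were higher and 1 was lower in irradiated cKO with drug over non-irradiated WT (median 1.43 against 0.10 over all genes), and 13 of 17 were higher and 1 was lower in irradiated WT over non-irradiated WT (1.39 against 0.13). In fibroblasts 12 of 24 were higher and 1 was lower in irradiated cKO with drug over non-irradiated WT (0.66 against 0.03). Irradiated WT over non-irradiated WT, 8 of 21 were higher and 1 was lower there (0.33 against -0.02). Over all genes 15.6% and 16.7% were higher in epithelial cells and 2.95% and 2.11% in fibroblasts, in the same pair order. Lower calls made up 11.3% in both pairs in epithelial cells, and 2.72% and 3.98% in fibroblasts. In the whole endothelial gate 3 of 25 were higher and 3 lower in irradiated cKO with drug over non-irradiated WT (-0.08 against -0.19). Irradiated WT over non-irradiated WT, 2 of 23 were higher and 6 lower (-0.40 against -0.21), shares near those of all genes. The list was not counted without the Ptprc+ cells of that gate, so these counts do not describe endothelial cells alone. In B cells none of 16 was higher and 5 were lower in irradiated WT over non-irradiated WT (median -0.50 against -0.03), and in T cells 1 of 24 was higher and 3 were lower (-0.17 against 0.07), near the 3.90% and 10.3% of all genes there. Over all genes in B cells 3.38% were higher and 14.5% lower. In NK cells none of 9 was higher and 4 were lower in that pair (-0.15 against 0.09). Csf1r+ cells had 4 of 16 higher and 4 lower (-0.04 against -0.14), although Irf7 was called higher there. Irradiated cKO with drug over non-irradiated WT, 8 of 20 were higher and 4 lower in Csf1r+ cells (0.41 against -0.05), and none of 9 was called in NK cells. The difference between classes was not tested. Irradiated cKO with drug over irradiated WT, 6 of 15 were higher in B cells (0.49 against -0.10) and 3 of 26 in T cells (0.19 against -0.06). None was lower in either class. Over all genes 2.48% were higher in B cells and 0.836% in T cells. NK cells had 4 of 10 higher and 1 lower (0.27 against -0.03), beside 7.31% and 6.25% of all genes.

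In epithelial cells Lgals3bp, a secreted glycoprotein, read 136 CPM in irradiated cKO with drug, 265 CPM in irradiated WT and 30.1 CPM in non-irradiated WT lungs. Isg15, the ubiquitin-like protein ISG15, read 194, 129 and 20.2 CPM, and Ifit1, an antiviral RNA-binding protein, 40.3, 31.5 and 3.61 CPM. These 3 were higher in both irradiated libraries, while Slfn5, of the Schlafen family, was the gene that was lower, at 5.08, 0.797 and 24.8 CPM. Slfn5 was also the lower gene in fibroblasts, with 19.7, 16.2 and 38.4 CPM, where Isg15 (72.1, 77.2 and 33.5 CPM) and Rsad2, the antiviral enzyme viperin (8.33, 8.11 and 1.47 CPM), were higher in irradiated WT over non-irradiated WT. In B cells Bst2, the antiviral membrane protein tetherin, read 45.6 CPM in irradiated cKO with drug, 23.7 CPM in irradiated WT and 65.1 CPM in non-irradiated WT lungs, lower in irradiated WT than in non-irradiated WT (-1.29) and higher in irradiated cKO with drug than in irradiated WT (0.82). Ifit1 in B cells read 13.8, 1.17 and 6.38 CPM, and in T cells 25.4, 10.2 and 25.9 CPM. Ifit3, of the same family, read 13.5, 3.996 and 9.69 CPM in T cells, and Rtp4, an interferon-induced chaperone, 43.3, 19.9 and 29.7 CPM.

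**Figure D5:**
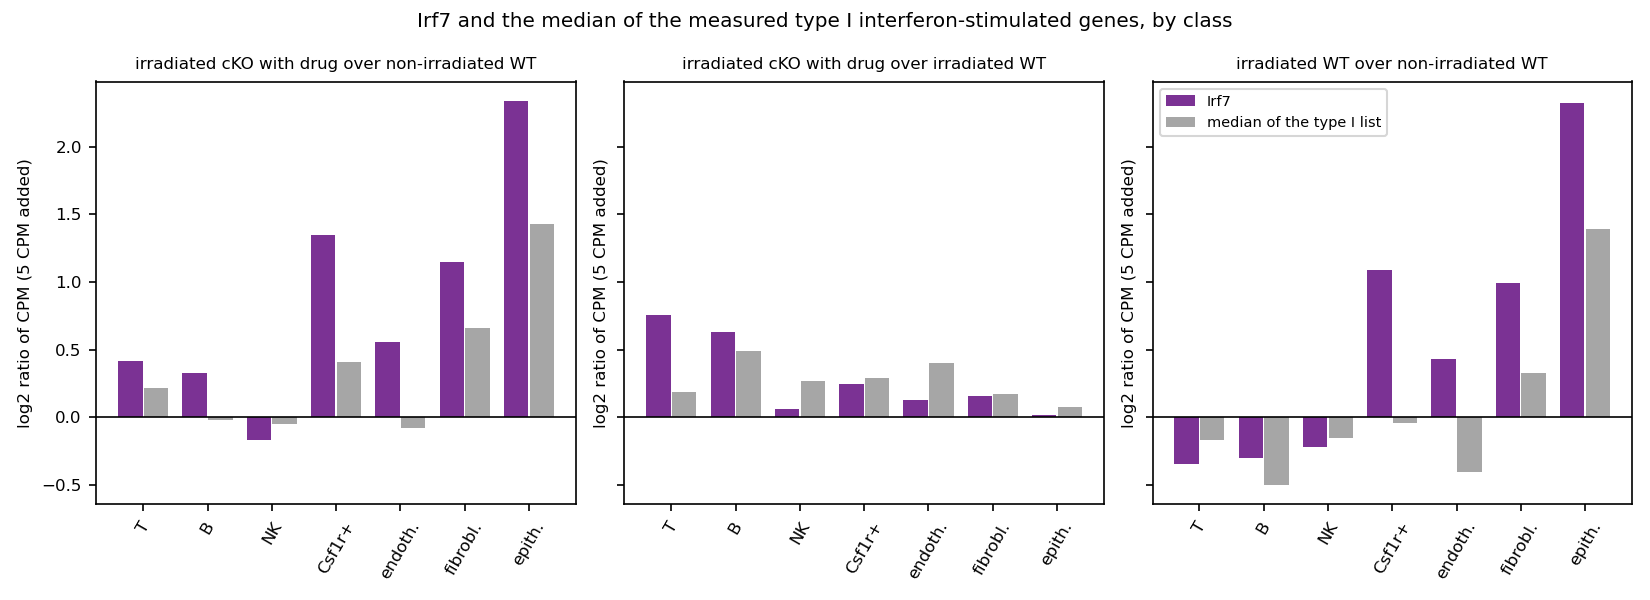
For each class, the log2 ratio of Irf7 (purple bars) beside the median log2 ratio of the type I interferon-stimulated genes compared there (grey bars), in the 3 library pairs. In epithelial cells Irf7 and the list median stand at 2.34 and 1.43 and at 2.32 and 1.39 against the non-irradiated WT library. The endothelial bars are for the whole gate with its Ptprc+ cells.

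The 16 partners and co-factors of IRF4, IRF8 and IRF2 had 2 genes higher and 2 lower of 14 in both T and B cells of irradiated WT over non-irradiated WT lungs. Over all genes 3.90% and 3.38% were higher and 10.3% and 14.5% lower in T and B cells. In Csf1r+ cells none of 13 was higher and 6 were lower (median -0.43 against -0.14 over all genes), beside 19.6% of all genes lower there. Batf, a partner of IRF4 in lymphocytes, read 25.6 CPM in irradiated cKO with drug, 14.2 CPM in irradiated WT and 38.7 CPM in non-irradiated WT Csf1r+ cells. Bcl6, a repressor of germinal-centre B cells, read 24.8, 17.2 and 37.3 CPM, and Prdm1, which encodes Blimp-1, 25.9, 31.4 and 60.2 CPM. These 3 were lower in irradiated WT than in non-irradiated WT Csf1r+ cells, as Irf4 and Irf5 were. Of the 22 genes of nucleic acid sensing, none of 11 in epithelial cells and none of 18 in Csf1r+ cells was higher in irradiated cKO with drug over non-irradiated WT. Over all genes 15.6% and 8.11% were higher there, a small number of genes for lists of this size. Irradiated WT over non-irradiated WT, 3 of 11 were higher and none lower in epithelial cells (median 0.21 against 0.13), beside 16.7% of all genes higher, and 2 of 16 were higher and 1 lower in Csf1r+ cells, beside 10.0% of all genes higher.

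Within a library, cells with a UMI of a member were set beside cells of the same class without one. T cells with an Irf7 UMI carried 1163 CPM of summed type I interferon-stimulated genes in the irradiated cKO with drug library, against 741 CPM in T cells without one. In irradiated WT T cells the values were 864 against 717 CPM, and in non-irradiated WT T cells 818 against 547.5 CPM. In B cells they were 806 against 374 CPM, 590.3 against 285 CPM and 735 against 428 CPM in the same library order. T cells with an Irf1 UMI carried 1370 CPM of summed interferon-gamma-induced genes against 739 CPM without one in irradiated cKO with drug, 1177 against 685 CPM in irradiated WT, and 883 against 597 CPM in non-irradiated WT lungs. Cells with a UMI were deeper, with medians of 7996 against 6710.5 UMIs for Irf7 and 7099.5 against 6300 UMIs for Irf1 in irradiated cKO with drug T cells, and the part of depth in these differences was not tested.

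For each member the 3 genes with the most similar pattern over the 21 class and library profiles were taken by Pearson's r of log2 CPM among 12402 genes. The profiles share libraries and depth, and r is given as a description. Irf4 was nearest to Ccr6 (0.97), Mif4gd (0.97) and Lta (0.96), and Irf5 to Prkcd (0.96), Ptpn6 (0.94) and Themis2 (0.94). Irf8 was nearest to Mlxip (0.94), Zfp787 (0.93) and Mylip (0.93), and Irf2 to Zfp532 (0.92), R3hdm2 (0.92) and Smurf2 (0.92). Irf3 was nearest to Rnf122 (0.91), Mphosph8 (0.91) and Stoml1 (0.89), and Irf9 to Fastkd2 (0.89), Mybbp1a (0.89) and Adar (0.89). Irf1 was nearest to Sh2d4b (0.88), Snrnp25 (0.87) and Lpxn (0.86). Irf7 was nearest to Hist1h1c (0.86), Ndufb6 (0.83) and Cox8a (0.79), the lowest values of any member. Between members, r was 0.77 for Irf1 and Irf4, 0.74 for Irf1 and Irf9, and 0.70 for Irf2 and Irf3 and for Irf4 and Irf9.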

How the data were processed

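Single-cell RNA was measured in 3 mouse lung libraries, 1 per group. The deposited tables hold UMI counts per gene and barcode, which the authors did not normalize. The file headers give software version 3.1.0 without a name, and the genome build is mm10 per the submitters' processing notes. The shallowest barcode in the tables has 500 UMIs, and cells under that were not analysed here. Neither the aligner nor the use of strand is stated in the sources used here. No column of values was left unused.

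Groups were taken from the labels. Cells with at least 250 genes and at most 15% mitochondrial UMIs were kept, gated on markers, summed by class and library, and scaled to CPM. Doublets were not removed in the values reported, since the automatic threshold of Scrublet marked only 2, 7 and 446 cells in the irradiated cKO with drug, irradiated WT and non-irradiated WT libraries. Removing the highest scores, 0.8% per 1000 barcodes, was an alternative. The call rule compared CPM after adding 5, and it was tested on simulated data. Intervals are exact Poisson for CPM and Clopper-Pearson for shares, at 95%, and a share of 0 is given with its exact upper limit. Thinning used random seed 1.

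All 8 members were followed in every class, and the 3 genes most like each member were taken among genes with at least 300 UMIs over the 21 profiles. There were 7 gene lists. Of the interferon-gamma-induced, type I and partner lists, 2 to 4 genes with the largest absolute log2 ratio in the class and pair are named. Ifng, Ifnb1, Tap1, Prdm1 and Isg15 in fibroblasts were added where their role or value bore on a member. Of the JAK-STAT list only Socs3 is named, and no gene of the receptor and nucleic acid sensing lists is named. The result of 1 listed gene is not reported here. The members, the gates and the lists were chosen with earlier results of these data known. Promoter windows are from RefSeq, and gene overlaps from GENCODE on GRCm38. In all, 12 alternative settings and 1 added later were computed. Scripts ran scanpy 1.11.5 and scikit-image 0.26.0 for doublets, scipy 1.17.1 with numpy 2.4.6 for intervals, pandas 2.3.3 and matplotlib 3.10.9 under python 3.11.15.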

Additional observations from a re-analysis of the deposited data

Results flagged for a closer look

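With every cell of the 7 gated classes included, Irf4 was the member whose calls ran in opposite directions in different classes of the same library pair. Irradiated cKO with drug over non-irradiated WT, its log2 ratio was 1.34 in endothelial cells and -1.11 in Csf1r+ cells. Irradiated cKO with drug over irradiated WT, it was 0.86 in epithelial cells and -0.70 in NK cells. Irradiated WT over non-irradiated WT, it was 0.97 in endothelial cells and -1.22 in Csf1r+ cells. With 1 library per group the difference between classes was not tested. The level in endothelial cells without a Ptprc UMI was 51.5 CPM in irradiated cKO with drug, 35.1 CPM in irradiated WT and 12.9 CPM in non-irradiated WT lungs. In cells that passed the endothelial gate only it was 12.7, 25.6 and 8.52 CPM in the same order, and the log2 ratio of irradiated cKO with drug over non-irradiated WT was 0.39, under the call. Neither irradiated library reached 30 UMIs there. After thinning each cell to 1000 UMIs, the Csf1r+ log2 ratios were -0.19 for irradiated cKO with drug and -0.44 for irradiated WT over non-irradiated WT, both under the call. In cells that passed 1 gate only, the NK and epithelial levels were 5.63 and 11.8 CPM in irradiated cKO with drug and 8.66 and 7.11 CPM in irradiated WT lungs. With the endothelial gate taken without Ptprc+ cells, Irf7 also had calls in opposite directions, for irradiated cKO with drug over irradiated WT. Its log2 ratio was -0.66 there, against 0.76 in T cells and 0.63 in B cells. The endothelial value rested on 69 and 59 UMIs, with intervals that just overlapped. In cells that passed the endothelial gate only, Irf7 read 34.1 CPM in irradiated cKO with drug and 46.8 CPM in irradiated WT lungs.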

How the results depend on the processing

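Of 33 called log2 ratios, 4 kept their call in all 11 alternatives computed for a ratio: Irf1 in B cells of irradiated cKO with drug (1.35 to 1.54) and of irradiated WT (1.29 to 1.49) over non-irradiated WT, Irf1 in endothelial cells of irradiated cKO with drug over non-irradiated WT (0.63 to 1.15), and Irf3 in endothelial cells of irradiated WT over non-irradiated WT (-1.42 to -0.59). The alternative without Ptprc+ cells changed only the endothelial and fibroblast classes. For the other classes it repeats the main value and counts as a kept call in the numbers here and below. Of the 363 alternative values, 281 stayed within counting error of the main value, 78 moved by more than that and 4 reversed. Counted separately, 284 of the 363 kept their call, so a value that moved could still keep its call. The reversed values were Irf8 in endothelial cells without Ptprc+ cells, irradiated WT over non-irradiated WT (-0.61, chosen after seeing the data), Irf4 in NK cells with marker minimums raised by 1 UMI (0.22), Irf1 in epithelial cells of exactly 1 class (-0.04) and Irf4 in epithelial cells thinned to 1000 UMIs (-0.86), the last 3 for irradiated cKO with drug over irradiated WT. The cause was not tested.

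The number of called member values fell with a stricter rule. Irradiated cKO with drug over non-irradiated WT it was 14, against 8 at 2-fold, 9 with 20 CPM added and 8 after thinning, which left 36 values to compare. Irradiated cKO with drug over irradiated WT it was 6, against 0 at 2-fold, 1 with 20 CPM added, 2 after thinning with 27 values to compare, and 3 with doublets removed. Irradiated WT over non-irradiated WT it was 13, against 6 at 2-fold and 22 with 1 CPM added. Irf7 in T cells of irradiated cKO with drug over irradiated WT ranged from 0.51 to 0.87 and kept its call in 9 of 11 alternatives, and in B cells from 0.40 to 0.75 in 7 of 11. Irf4 in Csf1r+ cells lost its call after thinning in irradiated cKO with drug (-0.19) and irradiated WT (-0.44) over non-irradiated WT. Irf1 in irradiated WT fibroblasts kept its call in 5 of 11. Median-of-ratios scaling moved the median of all genes by -0.20 and -0.17 in epithelial cells of irradiated WT and irradiated cKO with drug over non-irradiated WT, and by 0.11 in B cells of irradiated cKO with drug over irradiated WT. No paired analysis was possible because each group has 1 library. Few cells limit the precision of some classes, with 86 Csf1r+ and 118 epithelial cells in the irradiated WT library, and 1 library per group leaves the spread between mice unmeasured.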

Other observations

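Among small populations that entered no comparison, neutrophils carried 39.6 CPM of Irf8 in irradiated cKO with drug, 279 CPM in irradiated WT and 97.2 CPM in non-irradiated WT lungs, from 119, 33 and 159 cells. Type 1 conventional dendritic cells carried 269, 313 and 203 CPM of Irf5 in the same order. Macrophages gated on C1q transcripts carried 4.15, 44.4 and 102 CPM of Irf4 from 34, 11 and 55 cells. They are a part of the Csf1r+ cells, where most irradiated WT Irf4 UMIs lay in a single cell, as given above. The irradiated WT value is therefore not read as a level of the 11 cells. T cells with an Irf9 UMI held 1018 CPM of summed type I interferon-stimulated genes in irradiated cKO with drug, against 752 CPM in T cells without one, 878 against 671 CPM in irradiated WT, and 778 against 526 CPM in non-irradiated WT lungs. With an Irf1 UMI the same sum was 826 against 931 CPM in irradiated cKO with drug T cells and 723 against 782 CPM in irradiated WT T cells, while in non-irradiated WT T cells it was 621 against 534 CPM.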
